A study of Homo sapiens with 12 samples.

Results

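The 35 genes described here were chosen for links to ATF4, a transcription factor of the integrated stress response, or to amino acid metabolism. They were measured by RNA sequencing in A549 lung adenocarcinoma cells, and whether ATF4 drives them there was not tested. They are a list of named genes, drawn up with earlier results of these data known, and no measured value enters the rule: ATF4 and the factors that work with it, stress outputs, enzymes of asparagine, serine, one-carbon, proline and cysteine metabolism, amino acid carriers and tRNA synthetases. Each symbol matched 1 row, so the set is 35 of 60676 gene rows in the count table. All 35 were among the 16192 genes that passed the filter on low counts.

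The 12 libraries fall into 4 groups of 3. LETS1 cells carried a lentivirus that expresses the long non-coding RNA LETS1, and Co.vec cells carried the empty lentiviral vector pCDH-EF1a-PURO. Each population received TGF-β at 5 ng/mL or its ligand buffer, and RNA was taken at 4 h. The groups, all A549, are therefore LETS1 cells with TGF-β, Co.vec cells with TGF-β, LETS1 cells in buffer and Co.vec cells in buffer. All cells, controls included, had been transduced, selected as a stable population with puromycin and grown in DMEM with fetal bovine serum. The submitters call the 3 libraries of a group biological replicates but do not say whether they came from separate transductions. The p-values below therefore measure the spread between these libraries only. In the test the spread of each gene was drawn towards that of all genes, so SE and p do not rest on its own libraries alone. The promoter that drives LETS1 is not named in the labels beyond the name of the empty vector. How much LETS1 RNA the cells made was not analysed here.

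ATF4 is controlled mainly at the level of its translation: when the initiation factor eIF2 is phosphorylated by kinases that sense amino acid shortage, misfolded protein or other stress, ribosomes reach the ATF4 reading frame more often. ATF4 then binds, usually as a dimer with a C/EBP protein, to composite C/EBP-ATF elements in genes that import, synthesise and charge amino acids. In lung fibroblasts, TGF-β is known to raise ATF4 and the enzymes of serine and glycine synthesis, which supply glycine for collagen. A549 cells are epithelial in origin, and mRNA counts do not measure ATF4 protein.

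Each library held between 19705135 and 20351043 fragments assigned to genes. Levels are given as CPM (counts scaled to a common library size) after scaling between libraries by TMM, as means ± SD over 3 libraries or as the 3 library values in the order of their replicate numbers. All 8 A549 and epithelial markers passed the filter, the lowest being EPCAM. Of these 8, 4 were called lower and 0 higher in LETS1 cells than in Co.vec cells both with TGF-β and in buffer. The 4 were KRT8, KRT18, KRT19 and AKR1B10. The shares of all genes called lower were 6.5% with TGF-β and 6.56% in buffer. The medians of the 8 were -0.15 with TGF-β and -0.19 in buffer on the log2 scale. The part of these markers in the LETS1 differences below was not tested. The endothelial markers CDH5, KDR, PECAM1 and VWF did not pass the filter. Of 6 fibroblast markers, COL1A1 and LUM passed and COL1A2, COL3A1, DCN and PDGFRB did not. The summed level of the 6 was 135 to 152 CPM in LETS1 cells with TGF-β, 122 to 130.2 CPM in Co.vec cells with TGF-β, 19.8 to 24.4 CPM in LETS1 cells in buffer and 13.9 to 14.1 CPM in Co.vec cells in buffer. COL1A1 made up nearly all of that sum, and its part in the results below was not tested.

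Promoters were read for the element through which ATF4 acts. The core TGATGNAA, where N is any base, was searched on both strands of the RefSeq window that runs from 250 bases before to 50 bases after each gene's start (GRCh38.p14). Of the 35 genes, 31 had a window, and 10 of these (32.3%) held the core, against 1217 of 27305 symbols in the whole table (4.46%). Most of the 31 windows thus held no core. The genes were chosen for links to ATF4 or amino acid metabolism, so their higher share is no independent result. It says nothing about these cells, and the whole table also includes symbols that were not tested here. The 10 sites found are shown with the core in capitals, 5′ to 3′ on the strand that reads as the core.
CEBPG: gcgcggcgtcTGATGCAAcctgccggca
CHAC1: ctggcaggagTGATGCAAcggcagggga
ASNS: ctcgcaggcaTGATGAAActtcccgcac
MTHFD1L: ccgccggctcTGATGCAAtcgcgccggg
SLC3A2: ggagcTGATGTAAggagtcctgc
SLC7A1: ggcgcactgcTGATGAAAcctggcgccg
SLC1A4: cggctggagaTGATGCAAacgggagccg
SLC1A5: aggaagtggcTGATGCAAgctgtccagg
AARS1: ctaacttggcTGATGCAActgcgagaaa
GARS1: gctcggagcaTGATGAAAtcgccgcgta
The cores lie on GRCh38.p14 at chr19:33374071-33374078 for CEBPG, chr15:40953262-40953269 for CHAC1, chr7:97872469-97872476 for ASNS, chr6:150866357-150866364 for MTHFD1L and chr11:62881736-62881743 for SLC3A2. Those of the other 5 lie at chr13:29595674-29595681 for SLC7A1, chr2:64989392-64989399 for SLC1A4, chr19:46784904-46784911 for SLC1A5, chr16:70289686-70289693 for AARS1 and chr7:30594845-30594852 for GARS1. The SLC3A2 stretch is shorter because its core lies close to the end of the window. In CHAC1, SLC3A2, SLC1A4, AARS1 and GARS1 the core is on the strand opposite to the gene. A match is a run of letters and not a measured binding site. Sequence outside the windows was not searched, so a gene without a match may hold the core elsewhere.

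Among the 10, the CEBPG and ASNS promoters are shown at greater length because both hold the core while CEBPG was called higher with TGF-β and ASNS was almost undetected. The ASNS level is uncertain, since 44.6% of its exonic bases are shared with another gene on the same strand. Each stretch is the 250 bases before the start on the gene's strand, at chr19:33373863-33374112 (plus strand) for CEBPG and chr7:97872409-97872658 (minus strand) for ASNS, with the core in capitals.
CEBPG promoter: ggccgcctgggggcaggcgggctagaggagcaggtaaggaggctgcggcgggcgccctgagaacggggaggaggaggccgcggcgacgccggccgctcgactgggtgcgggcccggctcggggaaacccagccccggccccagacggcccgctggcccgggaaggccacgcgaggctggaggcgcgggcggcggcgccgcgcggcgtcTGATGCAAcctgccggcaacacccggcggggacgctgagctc
ASNS promoter: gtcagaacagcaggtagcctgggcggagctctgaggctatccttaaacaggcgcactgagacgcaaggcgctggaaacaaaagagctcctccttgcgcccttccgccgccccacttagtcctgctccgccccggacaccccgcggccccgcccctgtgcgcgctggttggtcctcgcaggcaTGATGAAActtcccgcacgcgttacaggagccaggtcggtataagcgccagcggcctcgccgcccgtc

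**Figure D1:**
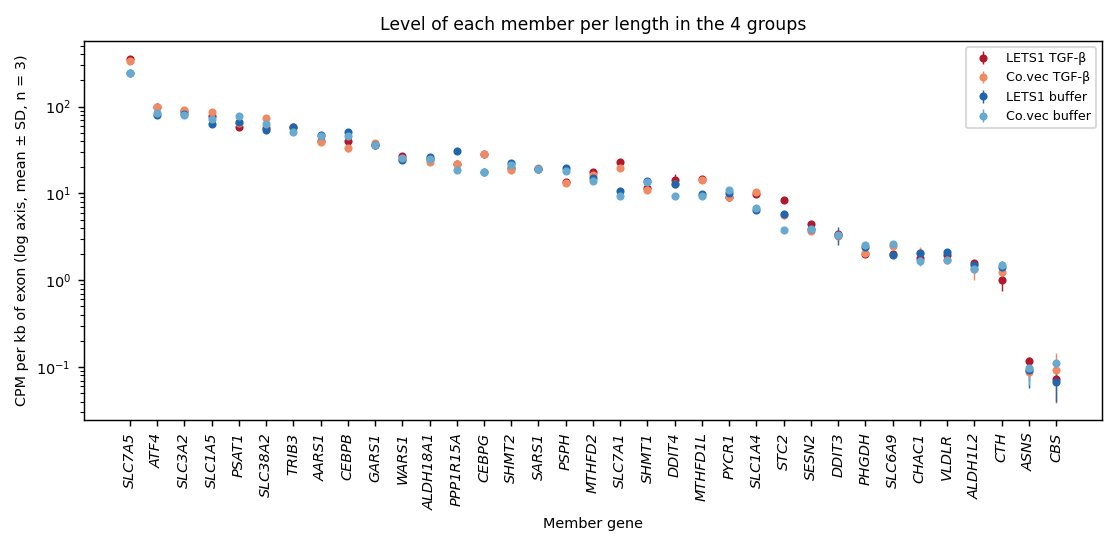
Level of each of the 35 genes in each of the 4 groups, in CPM per kilobase of exon on a log axis, with points for group means and bars for SD (n = 3). SLC7A5 stands highest, at 246 to 351, and CBS and ASNS lowest, at 0.0673 to 0.112 and 0.088 to 0.118. The levels of CBS and ASNS are uncertain because other annotated genes share their sequence.

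Per kilobase of exon, the most abundant transcript in every group was SLC7A5, which encodes the light chain of the LAT1 carrier of large neutral amino acids, with group means of 246 to 351 CPM per kb. ATF4 (80.4 to 99.1 CPM per kb) and SLC3A2 (80.9 to 91.2 CPM per kb), the heavy chain that brings LAT1 to the cell surface, followed, with ranges that overlapped each other. At the other end were ASNS, the enzyme that makes asparagine, with 0.088 to 0.118 CPM per kb, and CBS, the first enzyme of transsulfuration, with 0.0673 to 0.112 CPM per kb. Both of these low levels are uncertain, because other annotated genes share sequence with ASNS and CBS. As counted, the levels per kilobase spanned more than 3 orders of magnitude. The largest called change of any of the 35 between groups was 2.13-fold.

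TGF-β moved the set in both directions. Most amino acid carriers, CEBPG and the mitochondrial folate enzymes MTHFD1L and MTHFD2 were higher, and the 3 enzymes that make serine were lower. In LETS1 cells 11 of 35 genes (31.4%) were called higher with TGF-β than in buffer and 9 (25.7%) lower, at an adjusted p under 0.05 in edgeR's quasi-likelihood test with Benjamini-Hochberg adjustment over all 16192 genes. Of all genes tested, 19.7% were called higher and 19.1% lower in that comparison. In Co.vec cells 14 (40%) were called higher and 9 (25.7%) lower, against 21.1% and 18.6% of all genes tested. Taken either way, 20 of 35 passed in LETS1 cells against 38.7% of all genes, and 23 of 35 in Co.vec cells against 39.7%. Every TGF-β library lay above every buffer library for 11 of the 35 in LETS1 cells (24% of all genes) and 12 in Co.vec cells (24.4%), and below for 10 (24.9%) and 9 (22.9%). The median log2 fold change of the 35 was 0.0438 in LETS1 cells and 0.0117 in Co.vec cells, beside -0.0155 and -0.0175 over all genes, so the set had no common direction. The 10 genes called higher in both populations were ATF4, CEBPG, STC2, MTHFD2, MTHFD1L, SLC7A5, SLC3A2, SLC7A1, SLC1A4 and SLC1A5. The 7 called lower in both were CEBPB, PHGDH, PSAT1, PSPH, SHMT1, SHMT2 and AARS1. In bulk RNA, fewer cells expressing a gene and less RNA per cell cannot be told apart.

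**Figure D2:**
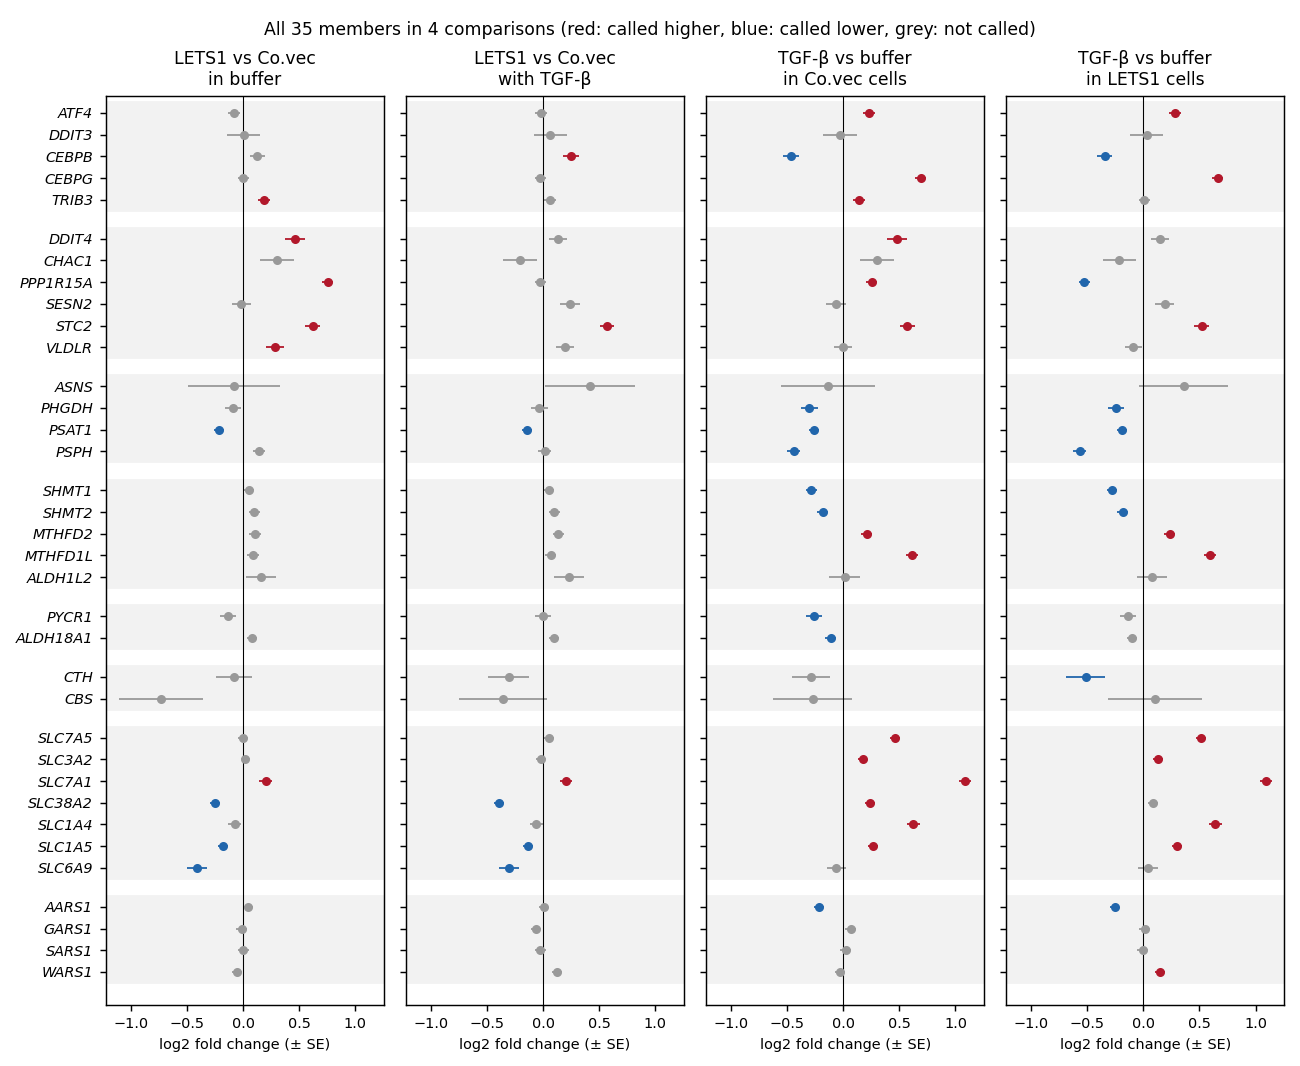
Log2 fold change of each of the 35 genes in the LETS1 comparisons and the TGF-β comparisons, with SE bars, red for called higher, blue for called lower and grey for not called, in blocks by role. With TGF-β no carrier is blue, and PHGDH, PSAT1 and PSPH are blue in both populations.

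ATF4 mRNA itself, from chr22:39519695-39522685 on the plus strand of GRCh38, was modestly higher with TGF-β. Its levels were 245, 243 and 250.3 CPM in LETS1 cells with TGF-β, against 208, 199 and 199 CPM in LETS1 cells in buffer. In Co.vec cells they were 257, 272 and 219 CPM with TGF-β, against 202, 214 and 223 CPM in buffer. The LETS1 libraries with TGF-β all lay above those in buffer, whereas among Co.vec cells replicate 3 with TGF-β fell just below the highest buffer library. The log2 fold change was 0.28 (SE 0.0537, edgeR's adjusted p = 6.06e-05) in LETS1 cells and 0.23 (SE 0.0536, edgeR's adjusted p = 0.000984) in Co.vec cells.

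CEBPG, a C/EBP protein that pairs with ATF4, was also higher with TGF-β. It stood at 125, 120.3 and 129 CPM with TGF-β and 76.9, 78 and 81.2 CPM in buffer in LETS1 cells. The Co.vec libraries held 131, 129.9 and 120 CPM with TGF-β and 81.5, 78.8 and 75.3 CPM in buffer. Libraries with and without TGF-β did not overlap in either population, and the log2 fold change was 0.66 (SE 0.0484, edgeR's adjusted p = 1.27e-14) in LETS1 cells and 0.69 (SE 0.0485, edgeR's adjusted p = 3.62e-15) in Co.vec cells. CEBPB, a C/EBP activator of acute-phase and stress genes, went the other way: it averaged 77.4 ± 8.8 CPM with TGF-β against 98.3 ± 1.93 CPM in buffer in LETS1 cells (log2 fold change -0.34, SE 0.0676, edgeR's adjusted p = 0.000175). In Co.vec cells the averages were 65.3 ± 6.71 CPM with TGF-β and 90.04 ± 3.99 CPM in buffer (log2 fold change -0.46, SE 0.069, edgeR's adjusted p = 4.21e-06). TRIB3, a pseudokinase that ATF4 induces and that in turn restrains it, was not called in LETS1 cells (log2 fold change 0.0105, edgeR's adjusted p = 0.896). In Co.vec cells it passed the threshold, with a log2 fold change of 0.14 at an adjusted p of 0.0315, although the libraries overlapped. That call was lost without Co.vec buffer replicate 1 or 3 and without Co.vec TGF-β replicate 1 or 2 (adjusted p = 0.1, 0.0581, 0.145 and 0.0989). DDIT3, which encodes the stress factor CHOP, had 76 to 113 counts per library and group means of 4.27 to 4.47 CPM, and passed in no comparison. Of its exonic bases 39.6% are shared with other genes, so its counts are uncertain.

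**Figure D3:**
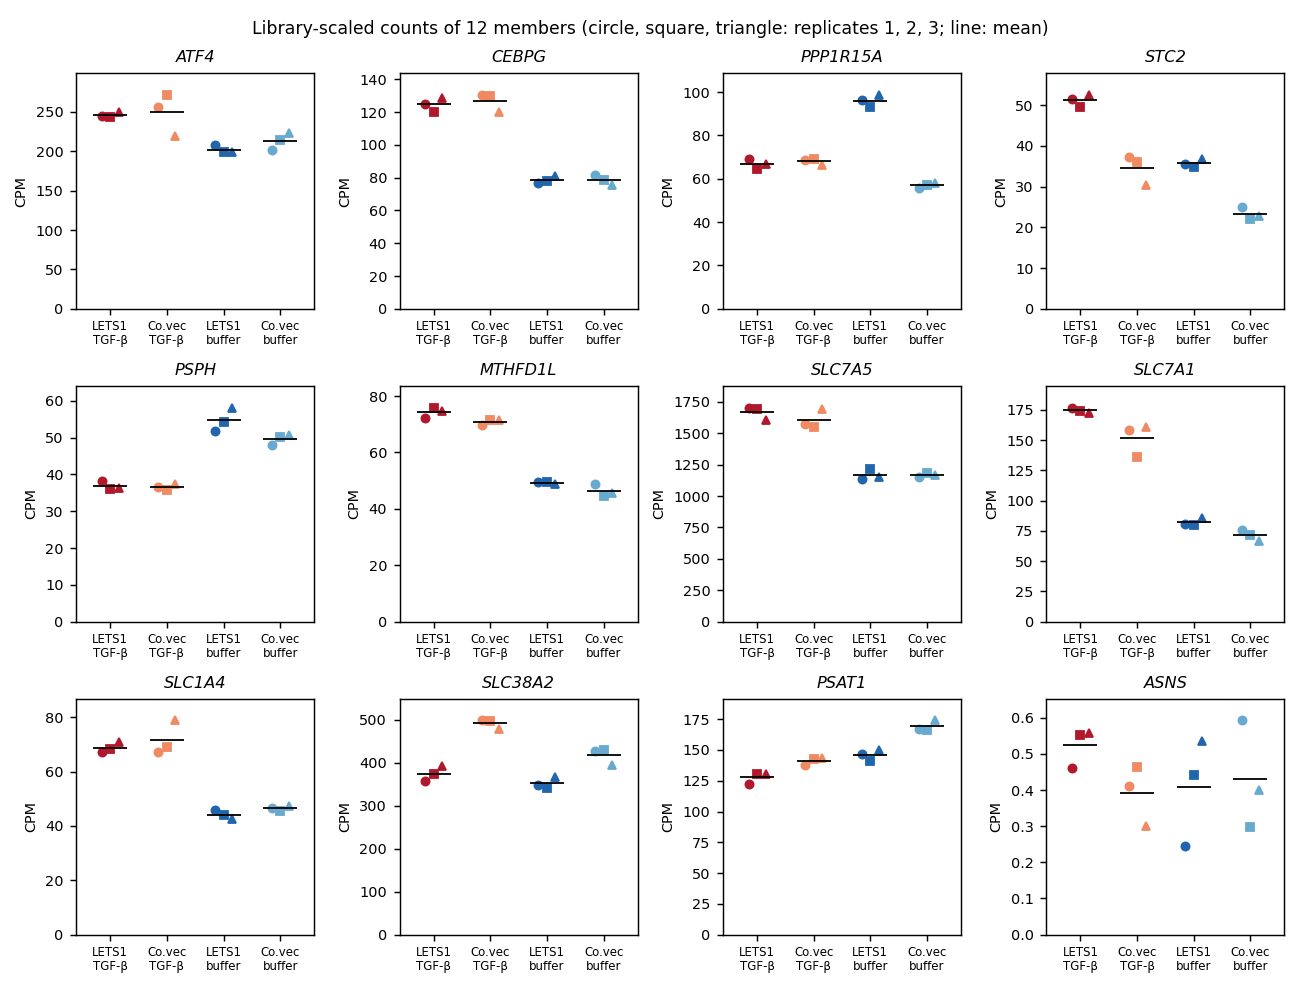
CPM in each of the 12 libraries for 12 of the genes, 1 panel each with its own axis from 0, symbols for replicates 1 to 3 and lines for group means. TGF-β groups stand above their buffer groups for CEBPG, MTHFD1L, SLC7A1, SLC7A5 and SLC1A4 and below them for PSPH and PSAT1.

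None of the 4 enzymes of asparagine and serine synthesis was called higher with TGF-β by edgeR or DESeq2, and the 3 with an unadjusted p under 0.05 were lower. The 3 steps of serine synthesis from a glycolytic intermediate, encoded by PHGDH, PSAT1 and PSPH in that order, were called lower in both populations. The shares of all genes called lower were 19.1% in LETS1 cells and 18.6% in Co.vec cells. PSPH, the phosphatase of the last step, had the lowest log2 fold changes of the 3. It held 38.3, 36.1 and 36.3 CPM with TGF-β against 51.8, 54.2 and 58.2 CPM in buffer in LETS1 cells, and 36.6, 35.8 and 37.3 CPM with TGF-β against 48.1, 50.1 and 50.7 CPM in buffer in Co.vec cells. All libraries with TGF-β lay below all those in buffer, with log2 fold changes of -0.57 (SE 0.0565, edgeR's adjusted p = 6.95e-11) in LETS1 cells and -0.44 (SE 0.0572, edgeR's adjusted p = 3.84e-08) in Co.vec cells. PHGDH, the dehydrogenase of the first step, averaged 18.6 ± 0.404 and 22 ± 1.04 CPM with TGF-β and in buffer in LETS1 cells and 19.1 ± 1.12 and 23.5 ± 1.92 CPM in Co.vec cells. Its log2 fold changes were -0.24 (SE 0.0741, edgeR's adjusted p = 0.00763) and -0.30 (SE 0.0734, edgeR's adjusted p = 0.000974), and the call in LETS1 cells was lost without LETS1 buffer replicate 2 (adjusted p = 0.0622). PSAT1, the transaminase between them, had log2 fold changes of -0.19 (SE 0.0444, edgeR's adjusted p = 0.000664) in LETS1 cells and -0.26 (SE 0.044, edgeR's adjusted p = 6.98e-06) in Co.vec cells.

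ASNS was almost undetected. Its counts were 9, 11 and 11 in LETS1 cells with TGF-β, 8, 9 and 6 in Co.vec cells with TGF-β, 5, 9 and 11 in LETS1 cells in buffer and 12, 6 and 8 in Co.vec cells in buffer. The groups overlapped, and no difference was detectable at this depth: the log2 fold change with TGF-β was 0.36 in LETS1 cells (95% interval -0.42 to 1.14) and -0.14 in Co.vec cells (95% interval -0.96 to 0.69). In the GENCODE 29 annotation 44.6% of its exonic bases are shared with AC079781.5 on the same strand, which had 10 to 25 counts per library. Fragments assignable to more than 1 gene were set apart in the deposited table and made up 10.1 to 10.9% of each library, so the ASNS level is uncertain.

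Serine passes its one-carbon unit to folate through the SHMT enzymes, and the mitochondrial folate enzymes then carry it to formate. The mitochondrial MTHFD1L, which releases formate, rose. It was at 72.3, 75.9 and 74.7 CPM with TGF-β, against 49.4, 49.6 and 48.8 CPM in buffer, in LETS1 cells. Co.vec cells had 69.6, 71.7 and 71.4 CPM with TGF-β, against 48.9, 44.7 and 45.5 CPM in buffer. No TGF-β library overlapped a buffer library, and the log2 fold changes were 0.59 (SE 0.0509, edgeR's adjusted p = 1.21e-12) in LETS1 cells and 0.61 (SE 0.0514, edgeR's adjusted p = 6.66e-13) in Co.vec cells. MTHFD2, the mitochondrial dehydrogenase upstream of it, was higher by less, with log2 fold changes of 0.24 (SE 0.0489, edgeR's adjusted p = 0.000129) in LETS1 cells and 0.21 (SE 0.0496, edgeR's adjusted p = 0.000703) in Co.vec cells. Both hydroxymethyltransferases fell: the cytosolic SHMT1 had log2 fold changes of -0.28 in LETS1 cells and -0.28 in Co.vec cells, and the mitochondrial SHMT2 -0.18 and -0.18, with adjusted p between 2.92e-06 and 0.00168. ALDH1L2, which oxidises mitochondrial formyl-folate, averaged 11.3 to 13.4 CPM and passed in no comparison of all 12 libraries, and between LETS1 and Co.vec cells with TGF-β it passed without Co.vec TGF-β replicate 3 (adjusted p = 0.00618).

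Of the 2 genes of proline synthesis, 0 were called in LETS1 cells and 2 were called lower in Co.vec cells. Of the 2 of transsulfuration, 1 was called lower in LETS1 cells and 0 in Co.vec cells. The shares of all genes called lower were 19.1% in LETS1 cells and 18.6% in Co.vec cells. PYCR1, the reductase of the last step to proline, averaged 26.3 ± 1.22 CPM with TGF-β against 31.6 ± 1.95 CPM in buffer in Co.vec cells (log2 fold change -0.26, SE 0.0708, edgeR's adjusted p = 0.00267). In LETS1 cells its log2 fold change was -0.13 (SE 0.0715, edgeR's adjusted p = 0.143). ALDH18A1, which makes the precursor, had an adjusted p of 0.0499 in Co.vec cells at a log2 fold change of -0.11, and that call was lost when any 1 of the 12 libraries was left out (adjusted p 0.059 to 0.166) and with DESeq2 (adjusted p = 0.0576). CTH, which makes cysteine from cystathionine, held 1.79, 2.51 and 2.95 CPM with TGF-β against 3.03, 3.29 and 4.05 CPM in buffer in LETS1 cells. In Co.vec cells it held 2.93, 3.56 and 2.51 CPM with TGF-β against 3.76, 3.42 and 3.81 CPM in buffer. The LETS1 libraries did not overlap and the Co.vec libraries did. Its log2 fold change was -0.51 (SE 0.177, edgeR's adjusted p = 0.0187) in LETS1 cells and -0.29 (SE 0.168, edgeR's adjusted p = 0.176) in Co.vec cells, and the call was lost without LETS1 buffer replicate 3, without LETS1 TGF-β replicate 1 and with DESeq2 (adjusted p = 0.135, 0.167 and 0.053). CBS had 5 to 20 counts per library and a near-identical annotated copy, CBSL, with 0 to 1 counts, so its level is uncertain, and it passed in no comparison.

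Of the 7 amino acid carriers, 5 were called higher in LETS1 cells, 6 in Co.vec cells and none lower in either. The shares of all genes were 19.7% higher and 19.1% lower in LETS1 cells, and 21.1% and 18.6% in Co.vec cells. In neither population was any of the 7 called lower by DESeq2, and none had an unadjusted p under 0.05 in that direction. SLC7A1, which encodes the cationic amino acid carrier CAT1 and lies at chr13:29509410-29595688 on the minus strand of GRCh38, had the largest change of the 35. Its levels were 177, 174 and 172 CPM in LETS1 cells with TGF-β, against 80.5, 80.1 and 85.2 CPM in buffer. In Co.vec cells the levels were 158, 136 and 160.4 CPM with TGF-β, against 75.5, 71.7 and 66.7 CPM in buffer. The lowest TGF-β library was far above the highest buffer library in both populations, and the log2 fold change was 1.09 (SE 0.0535, edgeR's adjusted p = 1.58e-19) in LETS1 cells and 1.09 (SE 0.0544, edgeR's adjusted p = 2.87e-19) in Co.vec cells.

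SLC1A4, the neutral amino acid carrier ASCT1, which takes up serine, was next among the carriers. It held 67.1, 68.4 and 71 CPM with TGF-β and 45.8, 44.1 and 42.4 CPM in buffer in LETS1 cells. Co.vec cells held 67.1, 69.1 and 78.9 CPM with TGF-β and 46.7, 45.4 and 47.4 CPM in buffer. The groups did not overlap, and the log2 fold change was 0.64 (SE 0.0571, edgeR's adjusted p = 3.61e-12) in LETS1 cells and 0.63 (SE 0.0568, edgeR's adjusted p = 5.89e-12) in Co.vec cells. SLC7A5 stood at 1705, 1690.05 and 1608 CPM with TGF-β against 1137, 1213 and 1151 CPM in buffer in LETS1 cells, and at 1576, 1549.6 and 1694 CPM against 1151, 1184 and 1168 CPM in Co.vec cells. Its TGF-β libraries were all higher than its buffer libraries, with log2 fold changes of 0.52 (SE 0.0426, edgeR's adjusted p = 4.49e-13) in LETS1 cells and 0.46 (SE 0.0426, edgeR's adjusted p = 9.57e-12) in Co.vec cells. SLC3A2, its partner chain, rose by less, 0.13 (SE 0.0419, edgeR's adjusted p = 0.0109) in LETS1 cells and 0.17 (SE 0.0419, edgeR's adjusted p = 0.000965) in Co.vec cells on the log2 scale, and the LETS1 call was lost without LETS1 buffer replicate 1 or 3 (adjusted p = 0.0523 and 0.0843). SLC1A5, the glutamine carrier ASCT2, had log2 fold changes of 0.30 (SE 0.0438, edgeR's adjusted p = 3.57e-07) and 0.26 (SE 0.0436, edgeR's adjusted p = 4.79e-06) in the same order. SLC38A2, the neutral amino acid carrier SNAT2, was called higher in Co.vec cells (log2 fold change 0.24, SE 0.0439, edgeR's adjusted p = 2.7e-05), with 0.09 in LETS1 cells (adjusted p = 0.106, 0.0412 with no filter on low counts and 0.0334 without LETS1 TGF-β replicate 1). SLC6A9, the glycine carrier GLYT1, averaged 10.04 to 13.4 CPM and did not pass with TGF-β. Of the exonic bases of MTHFD2 33.2% and of SLC1A5 23.8% are shared with genes on the opposite strand, and 29.7% of PYCR1 with genes on both strands, so their counts are uncertain in the same way.

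The 4 tRNA synthetases load amino acids onto their tRNAs. With TGF-β 1 of the 4 was called higher and 1 lower in LETS1 cells, and 0 higher and 1 lower in Co.vec cells. The shares of all genes were 19.7% higher and 19.1% lower in LETS1 cells, and 21.1% and 18.6% in Co.vec cells. AARS1, for alanine, averaged 178 ± 4.64 CPM with TGF-β and 213 ± 3.91 CPM in buffer in LETS1 cells, and 178 ± 6.16 and 206 ± 1.16 CPM in Co.vec cells. It was called lower in both, with log2 fold changes of -0.26 (SE 0.0422, edgeR's adjusted p = 4.32e-06) and -0.22 (SE 0.0422, edgeR's adjusted p = 6.31e-05). WARS1, for tryptophan, was called higher in LETS1 cells (log2 fold change 0.15, SE 0.0448, edgeR's adjusted p = 0.00824), a call lost without LETS1 buffer replicate 3 (adjusted p = 0.0522). GARS1, for glycine, and SARS1, for serine, had log2 fold changes between -0.0066 and 0.065 with TGF-β and passed in no comparison.

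Promoters that held the TGATGNAA core belonged, among genes with a window, to 6 of 11 called higher in LETS1 cells, 1 of 7 called lower and 3 of 13 not called. In Co.vec cells the numbers were 6 of 14, 1 of 6 and 3 of 11. Among all tested genes with a window, 3.55% of those called higher, 3.02% of those called lower and 2.46% of those not called in Co.vec cells held the core. The shares in LETS1 cells were 3.43%, 3.21% and 2.46% in the same order. Since the set was chosen for links to ATF4, its shares are no independent support. Whether the core goes with the response was not tested. CEBPG, MTHFD1L, SLC7A1, SLC1A4, SLC1A5 and SLC3A2, whose sites are printed above, were the 6 higher genes, and AARS1 was the lower one. ASNS, CHAC1 and GARS1 were not called.

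**Figure D4:**
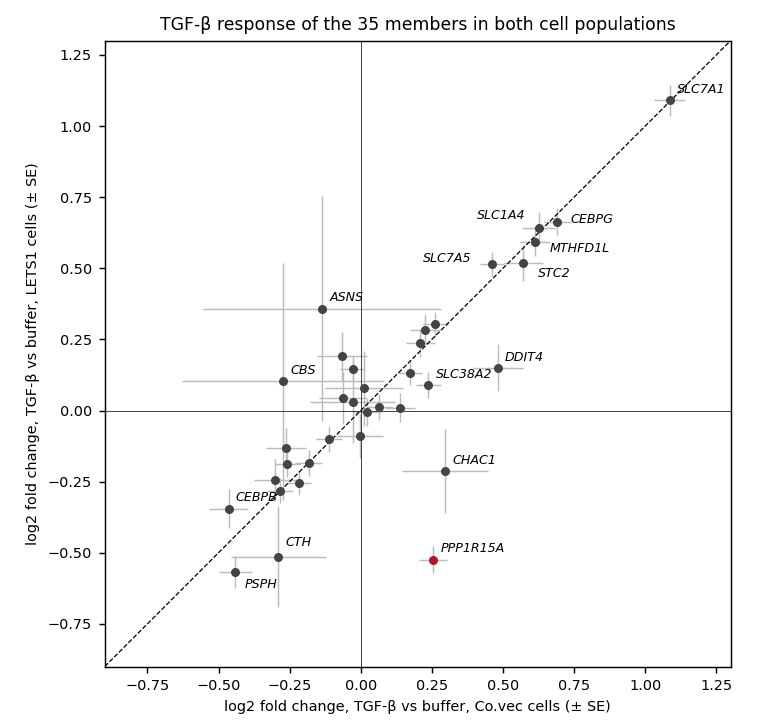
Log2 fold change with TGF-β in LETS1 cells (vertical axis) against that in Co.vec cells (horizontal axis) for the 35 genes, with SE bars and the line of equal change. Most genes lie near the line, and PPP1R15A, in red, lies far below it at -0.52 in LETS1 cells and 0.25 in Co.vec cells.

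Across the 35 genes the TGF-β responses of the 2 populations, which share no library, had a Pearson correlation of 0.816, beside 0.841 over all 16192 genes, and 26 of 35 had the same sign. These values describe the genes and carry no test, since genes of 1 library are not replicates of each other. The difference between the responses was tested as an interaction. In that test 1 of 35 genes was called, against 0.679% of all genes called in either direction, and 0.599% called as lower, the direction of that gene. Of the 35, 6 had an unadjusted p under 0.05. No gene of the set was called with an interaction above 0 by edgeR or DESeq2, and 0.0803% of all genes were.

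That gene was PPP1R15A, which encodes GADD34, the phosphatase subunit that removes the phosphate from eIF2 and so ends the ATF4 response. It lies at chr19:48872392-48876057 on the plus strand of GRCh38. Its levels were 69.2, 64.4 and 66.7 CPM in LETS1 cells with TGF-β, against 96.4, 93 and 98.8 CPM in LETS1 cells in buffer. In Co.vec cells they were 68.7, 69 and 66.1 CPM with TGF-β, against 55.6, 57.2 and 58.2 CPM in buffer. LETS1 cells in buffer stood above all other libraries, and the LETS1 and Co.vec libraries with TGF-β overlapped. With TGF-β it fell in LETS1 cells (log2 fold change -0.52, SE 0.0484, edgeR's adjusted p = 9.75e-12) and rose in Co.vec cells (log2 fold change 0.25, SE 0.0503, edgeR's adjusted p = 7.46e-05). The interaction was -0.78 (SE 0.0699, edgeR's adjusted p = 6.39e-10) on the log2 scale, and it was between -0.81 and -0.75 when each library was left out in turn. LETS1 against Co.vec gave 0.75 (SE 0.049, edgeR's adjusted p = 2.38e-15) in buffer and -0.025 with TGF-β (95% interval -0.12 to 0.07, adjusted p = 0.807).

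Immediate early genes, which cells switch on within minutes of a stimulus, were set beside it. Their list was written with earlier results of these data known, so its counts are no independent support. All 10 were called higher in LETS1 cells than in Co.vec cells in buffer, against 8.57% of all genes. Between LETS1 and Co.vec cells with TGF-β, 1 of 10, DUSP1, was called higher, against 7.58%. All 10 were called lower in the interaction, against 0.599%. With TGF-β against buffer, 4 were called higher and 6 lower in LETS1 cells, where 19.7% and 19.1% of all genes were. In Co.vec cells 7 were higher and 2 lower, where 21.1% and 18.6% of all genes were. IER2, IER3, JUN and JUNB rose in both populations, FOS and NR4A1 fell in both, and FOSB, DUSP1 and KLF6 fell in LETS1 cells and rose in Co.vec cells. FOS, an AP-1 subunit, had log2 fold changes of -4.12 in LETS1 cells and -2.35 in Co.vec cells, and JUNB, another, 1.40 and 2.72. EGR1, an early zinc-finger factor, had log2 fold changes with TGF-β of -3.94 in LETS1 cells and 0.46 in Co.vec cells, where it was not called (adjusted p = 0.356). FOSB, also an AP-1 subunit, had -2.08 and 3.25. Between LETS1 and Co.vec cells in buffer the log2 fold changes of the 10 reached 5.42. Some Co.vec levels in buffer were therefore far lower, and fold changes from a low level are uncertain. Counts of FOSB and EGR1 are not given here. ATF3, a stress factor that ATF4 induces, averaged 12.5 ± 1.14 CPM in LETS1 cells with TGF-β and 19.3 ± 1.26 CPM in LETS1 cells in buffer. In Co.vec cells ATF3 averaged 11.9 ± 1.6 CPM with TGF-β and 6.22 ± 0.797 CPM in buffer. Its interaction was -1.56 (SE 0.145, edgeR's adjusted p = 1.51e-09). The summed level of the 10 early genes was 842 to 945 CPM in LETS1 cells with TGF-β and 762 to 889.8 CPM in Co.vec cells with TGF-β. In buffer it was 809 to 998 CPM in LETS1 cells and 334 to 376 CPM in Co.vec cells. The part of these genes in the PPP1R15A result was not tested.

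**Figure D5:**
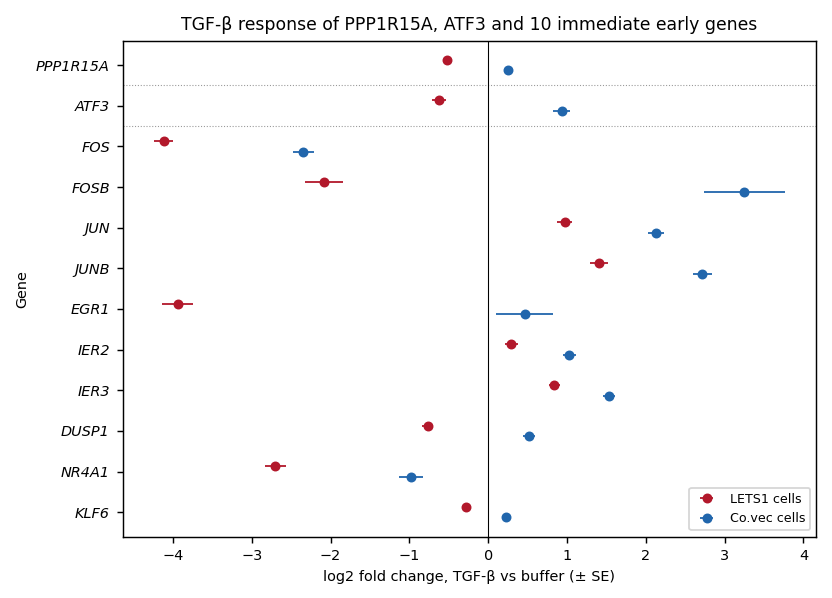
Log2 fold change with TGF-β, with SE bars, in LETS1 cells (red) and Co.vec cells (blue) for PPP1R15A, ATF3 and 10 immediate early genes. In all 12 genes the LETS1 value lies left of the Co.vec value, for example at -0.52 against 0.25 for PPP1R15A and -3.94 against 0.46 for EGR1.

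Without TGF-β, 4 of the 6 stress outputs were called higher in LETS1 cells than in Co.vec cells, and with TGF-β 1 of 6 was. The 6 are DDIT4, CHAC1, PPP1R15A, SESN2, STC2 and VLDLR. In buffer 6 of 35 genes (17.1%) were called higher in LETS1 cells and 4 (11.4%) lower, against 8.57% and 6.56% of all genes tested. With TGF-β 3 (8.57%) were called higher and 4 (11.4%) lower, against 7.58% and 6.5% of all genes. Either way, 10 of 35 passed in buffer against 15.1% of all genes, and 7 of 35 with TGF-β against 14.1%. Every LETS1 library lay above every Co.vec library for 12 of the 35 in buffer (16.8% of all genes) and 10 with TGF-β (14.5%), and below for 5 (14.2%) and 4 (14.2%). The medians of the 35 were 0.0044 in buffer and 0.0137 with TGF-β on the log2 scale, beside 0.01 and -0.0004 over all genes. ATF4 was not called in either comparison, with log2 fold changes of -0.076 in buffer (95% interval -0.18 to 0.03) and -0.017 with TGF-β (95% interval -0.12 to 0.09). STC2 and SLC7A1 were called higher in both, and PSAT1, SLC1A5, SLC38A2 and SLC6A9 lower in both.

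STC2, a secreted glycoprotein that is induced by ER stress, was higher in LETS1 cells in both conditions. It held 51.6, 49.5 and 52.6 CPM in LETS1 cells against 37.3, 36 and 30.4 CPM in Co.vec cells with TGF-β, and 35.6, 34.9 and 36.7 CPM against 25, 22.1 and 22.7 CPM in buffer. LETS1 libraries were above the Co.vec libraries in both conditions, although LETS1 in buffer and Co.vec with TGF-β overlapped. The log2 fold change was 0.57 (SE 0.0638, edgeR's adjusted p = 7.14e-09) with TGF-β and 0.62 (SE 0.0691, edgeR's adjusted p = 4.41e-09) in buffer. TGF-β itself raised it by 0.52 in LETS1 cells and 0.57 in Co.vec cells on the log2 scale (adjusted p = 9.32e-09 and 9.4e-09). The LETS1 and TGF-β differences use the same libraries in part, so they are not independent.

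DDIT4, an inhibitor of the growth kinase mTORC1, averaged 26.2 ± 1.34 CPM in LETS1 cells and 19 ± 1.21 CPM in Co.vec cells in buffer (log2 fold change 0.47, SE 0.0871, edgeR's adjusted p = 0.000173). With TGF-β the averages were 29.1 ± 4.92 CPM in LETS1 cells and 26.5 ± 1.48 CPM in Co.vec cells (log2 fold change 0.13, SE 0.0828, edgeR's adjusted p = 0.323). TGF-β raised it in Co.vec cells by 0.48 on the log2 scale (adjusted p = 3.61e-05), with 0.15 in LETS1 cells (adjusted p = 0.156). The interaction of -0.33 was not called (adjusted p = 0.377), and was called without LETS1 TGF-β replicate 1, the highest of its group (-0.48, adjusted p = 0.0135). Of its exonic bases 41.2% lie opposite DDIT4-AS1, which had 0 counts, and without a known strand setting its counts are uncertain. In buffer TRIB3 (log2 fold change 0.19, SE 0.0515, edgeR's adjusted p = 0.00882) and VLDLR, a lipoprotein receptor that ATF4 induces (log2 fold change 0.28, SE 0.0788, edgeR's adjusted p = 0.0101), were also called higher in LETS1 cells. The TRIB3 call was lost without LETS1 buffer replicate 3 (adjusted p = 0.14). The VLDLR call was lost without Co.vec buffer replicate 3, LETS1 buffer replicate 1 or LETS1 buffer replicate 3 (adjusted p = 0.0929, 0.0512 and 0.0664). LETS1 buffer replicate 3 was also the library with the highest summed immediate early genes, at 998 CPM, and the part of those genes in these calls was not tested. CHAC1, which breaks down glutathione, averaged 3.45 to 4.26 CPM, and SESN2, a leucine sensor upstream of mTORC1, 12.8 to 15.1 CPM, and neither passed in any comparison of all 12 libraries. With TGF-β, CHAC1 passed in Co.vec cells without Co.vec TGF-β replicate 1 (adjusted p = 0.0365), SESN2 in LETS1 cells without LETS1 buffer replicate 1 (adjusted p = 0.0241) and DDIT4 in LETS1 cells without LETS1 TGF-β replicate 3 (adjusted p = 0.0142).

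Of the 7 carriers, 1 was called higher and 3 lower in LETS1 cells than in Co.vec cells, with TGF-β and in buffer alike. The shares of all genes were 7.58% higher and 6.5% lower with TGF-β, and 8.57% and 6.56% in buffer. SLC38A2 averaged 374 ± 17.6 CPM in LETS1 cells and 492 ± 10.8 CPM in Co.vec cells with TGF-β (log2 fold change -0.39, SE 0.044, edgeR's adjusted p = 6.2e-09). In buffer it averaged 352 ± 13.2 CPM in LETS1 cells and 417 ± 18.8 CPM in Co.vec cells (log2 fold change -0.25, SE 0.0441, edgeR's adjusted p = 4.98e-05). SLC6A9 was lower in LETS1 cells by log2 fold changes of -0.41 (SE 0.0874, edgeR's adjusted p = 0.000559) in buffer and -0.30 (SE 0.0884, edgeR's adjusted p = 0.0146) with TGF-β, and SLC1A5 by -0.18 (SE 0.0439, edgeR's adjusted p = 0.0032) and -0.14 (SE 0.0435, edgeR's adjusted p = 0.0274). SLC7A1 was higher, with log2 fold changes of 0.20 (SE 0.0559, edgeR's adjusted p = 0.0105) in buffer and 0.20 (SE 0.0515, edgeR's adjusted p = 0.00448) with TGF-β. SLC7A5, SLC3A2 and SLC1A4 had log2 fold changes between -0.075 and 0.054 and were not called.

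Several of these smaller LETS1 differences depended on single libraries. With TGF-β, SLC6A9 was lost without Co.vec TGF-β replicate 1 or LETS1 TGF-β replicate 3 (adjusted p = 0.0742 and 0.084). SLC1A5 was lost without Co.vec TGF-β replicate 2 or 3 or LETS1 TGF-β replicate 1 or 3 (adjusted p = 0.0597, 0.0591, 0.0697 and 0.108). SLC7A1 was lost without Co.vec TGF-β replicate 2 (adjusted p = 0.104) and, in buffer, without Co.vec buffer replicate 3 or LETS1 buffer replicate 3 (adjusted p = 0.0868 and 0.0766). Calls were gained for PSPH in buffer without LETS1 buffer replicate 1 (adjusted p = 0.0476) and, with TGF-β, for MTHFD2 without Co.vec buffer replicate 1 and WARS1 without Co.vec TGF-β replicate 1 (adjusted p = 0.045 and 0.0233). SLC38A2, STC2, DDIT4, PPP1R15A, PSAT1, SLC6A9 and SLC1A5 kept their buffer calls when each of the 12 libraries was left out, SLC1A5 narrowly (highest adjusted p = 0.0453, edgeR).

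Among the enzymes, PSAT1 alone was called between LETS1 and Co.vec cells. It averaged 146 ± 4.4 CPM in LETS1 cells and 169 ± 4.26 CPM in Co.vec cells in buffer (log2 fold change -0.21, SE 0.0438, edgeR's adjusted p = 0.000377). With TGF-β it averaged 128 ± 4.56 CPM in LETS1 cells and 141 ± 2.95 CPM in Co.vec cells (log2 fold change -0.14, SE 0.0446, edgeR's adjusted p = 0.0235). The call with TGF-β was lost without Co.vec TGF-β replicate 2 or 3 or LETS1 TGF-β replicate 1 and without a filter on low counts (adjusted p = 0.0623, 0.0562, 0.123 and 0.0501). CEBPB was called higher in LETS1 cells with TGF-β (log2 fold change 0.25, SE 0.0698, edgeR's adjusted p = 0.0165), which was lost without Co.vec TGF-β replicate 3 or LETS1 TGF-β replicate 1 or 2 (adjusted p = 0.0889, 0.124 and 0.0829). None of the 4 tRNA synthetases was called in either LETS1 comparison by edgeR or DESeq2, with 0 and 1 at an unadjusted p under 0.05 in buffer and with TGF-β.

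Other genes of the pathway were read from lists written with earlier results of these data known. With TGF-β 19.7% of all genes were called higher and 19.1% lower in LETS1 cells, and 21.1% and 18.6% in Co.vec cells, and the list counts below are given beside those shares. Upstream of ATF4, a list of 15 eIF2 kinases, eIF2B subunits and mitochondrial stress relays had 2 called higher (13.3%) and 3 lower (20%) with TGF-β in LETS1 cells, near or below the shares of all genes. In Co.vec cells 2 were higher (13.3%) and 6 lower (40%). EIF2AK3, the ER stress kinase PERK, had log2 fold changes of 0.20 and 0.34, and OMA1, the protease that relays mitochondrial stress, -0.52 and -0.36. Of 16 other ATF4-linked genes, 7 were higher (43.8%) and 3 lower (18.8%) in LETS1 cells and 8 higher (50%) and 2 lower (12.5%) in Co.vec cells. NUPR1, a stress-induced chromatin protein, rose by 1.01 and 0.87 on the log2 scale, whereas GDF15, a secreted stress cytokine, had -1.59 and -1.35. Both are often read as ATF4 outputs, and here they moved in opposite directions.

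Carriers outside the set were also mixed: of 17 tested, 7 were called higher (41.2%) and 3 lower (17.6%) with TGF-β in each population. SLC1A3, among the 17, passed the filter on low counts through its LETS1 libraries and was lower there with TGF-β than in buffer. The LETS1 count of lower carriers is therefore no independent support. SLC7A8, the LAT2 light chain, had log2 fold changes of 1.10 in LETS1 cells and 0.91 in Co.vec cells, and SLC7A2, the cationic carrier CAT2, -0.90 and -0.92. Of 18 tested folate, glycine and methionine cycle genes, 3 were higher (16.7%) and 5 lower (27.8%) in LETS1 cells, against 19.7% and 19.1% of all genes, and 3 higher (16.7%) and 7 lower (38.9%) in Co.vec cells, against 21.1% and 18.6%. They included SLC19A1, the reduced folate carrier, at -0.37 and -0.43, and GLDC, of the glycine cleavage system, at 0.34 and 0.39. No mitochondrial tRNA synthetase of 16 was called higher with TGF-β by edgeR or DESeq2, and 6 were lower in LETS1 cells (37.5%) and 5 in Co.vec cells (31.2%), which were also all those with an unadjusted p under 0.05. AARS2, for alanine, had -0.59 and -0.41. Of 16 other cytosolic synthetases, 0 were higher and 5 lower (31.2%) in LETS1 cells, where DESeq2 called 1 higher, and 2 higher (12.5%) and 4 lower (25%) in Co.vec cells, all by less than 0.2 on the log2 scale.

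Between LETS1 and Co.vec cells, the listed carriers included SLC1A3, a glutamate and aspartate carrier that was near 0 in Co.vec cells. It held 59, 57 and 68 counts in LETS1 cells and 6, 3 and 1 counts in Co.vec cells with TGF-β, and 135, 131 and 130 counts in LETS1 cells and 3, 4 and 3 counts in Co.vec cells in buffer. It averaged 3.11 ± 0.309 CPM in LETS1 cells and 0.171 ± 0.13 CPM in Co.vec cells with TGF-β, and 6.46 ± 0.123 CPM in LETS1 cells and 0.166 ± 0.0283 CPM in Co.vec cells in buffer. It passed the filter on low counts through its LETS1 libraries, so its call is no independent support and no fold change is given. SLC7A7, a light chain of the cationic exchanger, was lower in LETS1 cells in both (log2 fold changes -0.83 and -0.83). Of 17 other carriers, 6 were higher and 4 lower with TGF-β, against 7.58% and 6.5% of all genes, and 5 higher and 3 lower in buffer, against 8.57% and 6.56%. Both counts of higher carriers include SLC1A3. NIBAN1, an ATF4-linked stress gene, was higher by 0.59 with TGF-β and 0.60 in buffer on the log2 scale, among 3 of 16 such genes called higher and none lower in each (3 and 6 had an unadjusted p under 0.05 in buffer and with TGF-β, and DESeq2 called 1 higher and 0 lower in each). Which gene DESeq2 called is not given here. The largest log2 fold change of the 16 in buffer was 1.63, above that of NIBAN1, and ATF3, whose levels are given above, is also on this list.

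Among sensors and brakes of mTORC1, 10 of 11 were tested. DEPTOR, a subunit that inhibits mTOR, was called lower in all 4 comparisons, with log2 fold changes of -0.59 and -1.03 with TGF-β in LETS1 and Co.vec cells, and of -0.43 and -0.88 in LETS1 cells with TGF-β and in buffer. With TGF-β 6 of the 10 were lower in LETS1 cells (60%) and 4 in Co.vec cells (40%), and TSC1, a brake on mTORC1, was the 1 called higher in each. Of 13 tested enzymes of proline, glutamate, aspartate, arginine and branched-chain amino acids, 5 were called higher and 0 lower in LETS1 cells than in Co.vec cells with TGF-β, against 7.58% and 6.5% of all genes. In buffer 5 were called higher and 1 lower, against 8.57% and 6.56%. BCAT1, the cytosolic branched-chain transaminase, led both, at 0.38 and 0.42.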

How the data were processed

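Gene-level fragment counts of 12 A549 RNA-seq libraries, made with FastQC, cutadapt 2.10, STAR 2.7.5a and HTSeq 0.12.4 on GRCh38 per the submitters' processing notes, were used as deposited by the authors. The sources used here give neither annotation release nor strand setting, so overlapping antisense genes may share fragments. The 5 summary rows were left out of library sizes: of each library 10.1 to 10.9% was ambiguous between genes, 2.81 to 3.53% lay in no gene, 2.93 to 4.27% was unaligned and 1.99 to 2.29% aligned at several places. Symbols were found for 60357 of 60676 rows. No library pair of a group agreed within sampling noise (chi-square per degree of freedom 2.16 to 5.24).

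Counts were filtered with filterByExpr and scaled by TMM, and 1 mean per group was fitted with edgeR 4.0.16 (quasi-likelihood, robust, R 4.3.3) over all 12 libraries; SE was derived from the F statistic. Calls used a Benjamini-Hochberg adjusted p under 0.05 over 16192 genes in each of 5 contrasts. The fit was tested on simulated data. Exon lengths and overlaps came from GENCODE 29. Alternatives were RLE scaling, no filter, a replicate block, 6-library fits, a minimum fold (0.5 in log2), DESeq2 1.42.0 and leaving out each library.

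The members and lists were chosen with earlier results of these data known. Library values are printed for members called with an absolute log2 fold change of at least 0.5 between 2 groups and for ATF4 and ASNS; other members are given by means, ranges or fold changes, and of each list at most the 2 largest called rises and falls.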

Additional observations from a re-analysis of the deposited data

Results flagged for a closer look

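The TGF-β response of PPP1R15A differed between the cell populations by the test of the difference itself, with an interaction of -0.78 on the log2 scale (adjusted p = 6.39e-10, edgeR). It was lower with TGF-β in 3 of 3 LETS1 libraries and higher in 3 of 3 Co.vec libraries than in every buffer library of the same population.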

How the results depend on the processing

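No called value changed direction under any alternative run. A minimum absolute log2 fold change of 0.5 moved counts of called genes by more than 1.5 times. It left 2 in buffer (2 higher, 0 lower) and 1 with TGF-β (1 higher, 0 lower) between LETS1 and Co.vec cells, 9 with TGF-β in LETS1 cells (6 higher, 3 lower) and 5 in Co.vec cells (5 higher, 0 lower). Leaving out each library gave 7 to 10 called between LETS1 and Co.vec cells in buffer (3 to 6 higher, 4 to 4 lower) and 4 to 8 with TGF-β (2 to 4 higher, 2 to 4 lower). For TGF-β it gave 17 to 21 in LETS1 cells (9 to 12 higher, 8 to 9 lower), 21 to 22 in Co.vec cells (13 to 14 higher, 8 to 8 lower) and 1 to 2 in the interaction (0 to 0 higher, 1 to 2 lower). The moves past 1.5 times came without LETS1 buffer replicate 3 (3 higher in buffer), without Co.vec TGF-β replicate 2 or LETS1 TGF-β replicate 1 (4 called and 2 lower with TGF-β), without Co.vec TGF-β replicate 3 or LETS1 TGF-β replicate 3 (2 lower with TGF-β) and, in the interaction, without LETS1 TGF-β replicate 1 (2 lower). Same-numbered libraries did not deviate together: 0 of 18 pairs correlated above 0.1. A fit with the replicate number as a block called 10, 7, 22, 20 and 1 genes in the order buffer, TGF-β, Co.vec, LETS1 and interaction, and changed only the call of ALDH18A1 (adjusted p = 0.0676). Of the pathway lists, DESeq2 called 0 in place of 2 upstream genes higher with TGF-β in LETS1 cells, 1 in place of 2 cytosolic synthetases higher in Co.vec cells, and 2 in place of 4 other carriers lower in LETS1 cells than in Co.vec cells with TGF-β. ALDH18A1 was also lost with no filter and in the 6-library fit (adjusted p = 0.221 and 0.0896). Low counts limit ASNS and CBS, with SEs of 0.396 and 0.418 for the log2 fold change with TGF-β in LETS1 cells, so that the smaller changes called in other genes were not detectable in them.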
